A study of Mus musculus with 16 samples.

Results

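The broad acetylated domains of the mouse liver described here are stretches of chromosomes 1 to 19 that carried H3K27Ac peaks in each of 15 animals. Overlapping or adjoining peaks of all 15 peak lists were merged into 55617 regions, and a region was kept as a broad domain when it overlapped a peak in every list and its merged width was 15000 bp or more. This left 2324 domains, 4.18% of the merged regions but 19.96% of their length, 59.3 of 297 Mb. The domains were thus chosen by 2 measured values, their merged width and their presence in every list, which are given as descriptions with no test. The rule did not look at the groups. The covered share of a domain, its division into peaks and its score were set side by side between groups. A region can, however, pass the width limit through a long peak of 1 animal. The covered share and number of peaks of that animal are then not independent of the rule. Leaving out HCC 123390 gave 1898 domains, the lowest number for any animal left out.

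H3K27Ac, the acetylation of lysine 27 of histone H3, is deposited at active promoters and enhancers and is widely used to map them by ChIP-seq. Most acetylated sites are short, whereas long stretches, known as stretch enhancers or super-enhancers, are typical of highly expressed genes and of genes that define a cell type. A peak caller reads such a stretch either as a single long peak or as several peaks with gaps between them, depending on how far the signal falls between its summits and on how deeply the library was sequenced.

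The 3 groups were 5 WT livers (strain FVB.129P2 in the sample records and FVB/NJ in the paper, Mdr2-WT, aged 14 to 19 months), 5 inflamed livers (FVB.129P2-Abcb4tm1Bor/J, Mdr2-KO, aged 7 to 8 months) and 5 HCC nodules (the same knockout strain, aged 14 to 19 months), each from a different animal. Mdr2, also named Abcb4, is the hepatocyte transporter that moves phospholipid into bile, and its loss causes chronic cholestatic liver inflammation followed by hepatocellular carcinoma. It was deleted in the whole animal. Every animal of all 3 groups, controls included, received clodronate liposomes (50 μg per g of body weight in the sample records) for 48 h to deplete macrophages, so that the samples were enriched in hepatocytes but remained bulk tissue. The study used mice of both sexes, without a record of sex per animal. Inflamed livers came from younger animals than both other groups, and age and stage cannot be told apart in their comparisons. In bulk tissue, fewer acetylated cells and less acetylation per cell cannot be told apart either.

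In 3 libraries the lists stood apart, and several of the results below are also given without them. HCC 123390 covered more of the domain than any other animal in 1147 of the 2324 domains. WT 130748 and HCC 124711 had the lowest total length under peaks of their groups, 108 and 91.4 Mb, and the highest shares of peaks tied at a score of 3100, 23.7% and 24.6% of their lists. Peak lists on chromosomes 1 to 19 held 25867 to 29618 peaks in WT, 35188 to 40063 in inflamed and 26235 to 41863 in HCC animals. The files hold no read counts, so the sequencing depth behind each list is unknown, and its part in the values below was not tested.

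The domains ranged in width from 15004 to 143840 bp, with a median of 21583 bp, whereas the 9550 narrower regions that also had a peak in all 15 animals had a median width of 6020 bp. Just inside the width limit lay regions of 15004, 15006 and 15008 bp on chromosomes 7, 7 and 10, and just outside it regions of 14988, 14983 and 14969 bp on chromosomes 11, 11 and 1. A further 489 regions were wide enough but lacked a peak in at least 1 animal. Domains lay on every autosome, from 75 on chromosome 12 to 195 on chromosome 11, and 45.1% of them lay within 50000 bp of another. The densest runs were 7 domains between 129056524 and 129435287 on chromosome 8 and 7 between 38329126 and 38595497 on chromosome 18.

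A merged domain is wider than the stretch that all animals shared. The part of a domain under peaks of all 15 animals, called its shared core here, had a median of 29.98% of the merged width (quartiles 17.2 and 45.4%). Over all domains 32.5% of the length belonged to shared cores and 9.004% was under a peak of a single animal. The shared core was a single stretch in 802 domains and broken into 2 or more stretches in 1470, and 52 domains had none, so that peaks of different animals lay there in different places of the same domain. Only 60 domains held a peak of at least 15000 bp in every animal, and 345 had no such peak in any animal. In 766 domains exactly 1 animal had a peak of that length, and in 501 of these the animal was HCC 123390. Within groups, the share under peaks of all 5 animals had a median of 43.8% in WT, 54.6% in inflamed and 36.4% in HCC.

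The domain with the largest shared core, 90.9%, was chr12:88222130-88242592 (20463 bp, NCBI37/mm9), with 1 peak in every animal. Its covered share was 91.4 to 98.9% in WT, 97.8 to 98.4% in inflamed and 94.6 to 98.1% in HCC animals. Next were chr2:30807046-30824661 (17616 bp, shared core 89.8%) and chr7:19584995-19611817 (26823 bp, shared core 89.6%), where no animal covered less than 93.0%. None of these 3 passed the threshold between any pair of groups in the limma fit described below (adjusted p of at least 0.653). At the other end were wide domains with no shared core. In chr9:69130926-69189483 (58558 bp) WT 130747 covered 9.16% and HCC 124711 15.6%, while the other 13 animals covered 47.4 to 94.8%. In chr7:91252966-91306464 (53499 bp) HCC 123206 covered 15.0% and HCC 123390 98.7%, and in chr2:79796266-79846385 (50120 bp) WT 130748 covered 1.69% and HCC 123390 99.2%.

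The 5 widest domains were broken up in different ways. The widest, chr1:138729967-138873806 (143840 bp), was a single peak covering 100% in HCC 123206, whereas the other 14 animals had 10 to 17 peaks covering 23.8 to 79.3%. The second, chr14:26264852-26388593 (123742 bp), was 77.9 to 99.2% covered in 14 animals but 7.76% in HCC 123390, the library with the fullest domains elsewhere. The third, chr15:58800660-58923358 (122699 bp), was covered to 92.7 to 99.4% in 14 animals and to 28.1% in HCC 124711. Although it was almost fully covered in both groups, it was a single peak in 4 of 5 WT livers and 5 peaks in WT 130748, and 3 to 7 peaks in inflamed livers. The fourth, chr9:7923989-8029961 (105973 bp), was spanned by a single peak in HCC 123206, and the other 14 animals had 2 to 9 separate peaks over 4.65 to 31.8% of it. The fifth, chr9:45991196-46092818 (101623 bp), had the largest shared core of these 5, 59.6%, in 3 to 9 peaks per animal. None of the 5 passed the limma threshold between groups (adjusted p of at least 0.19).

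**Figure D1:**
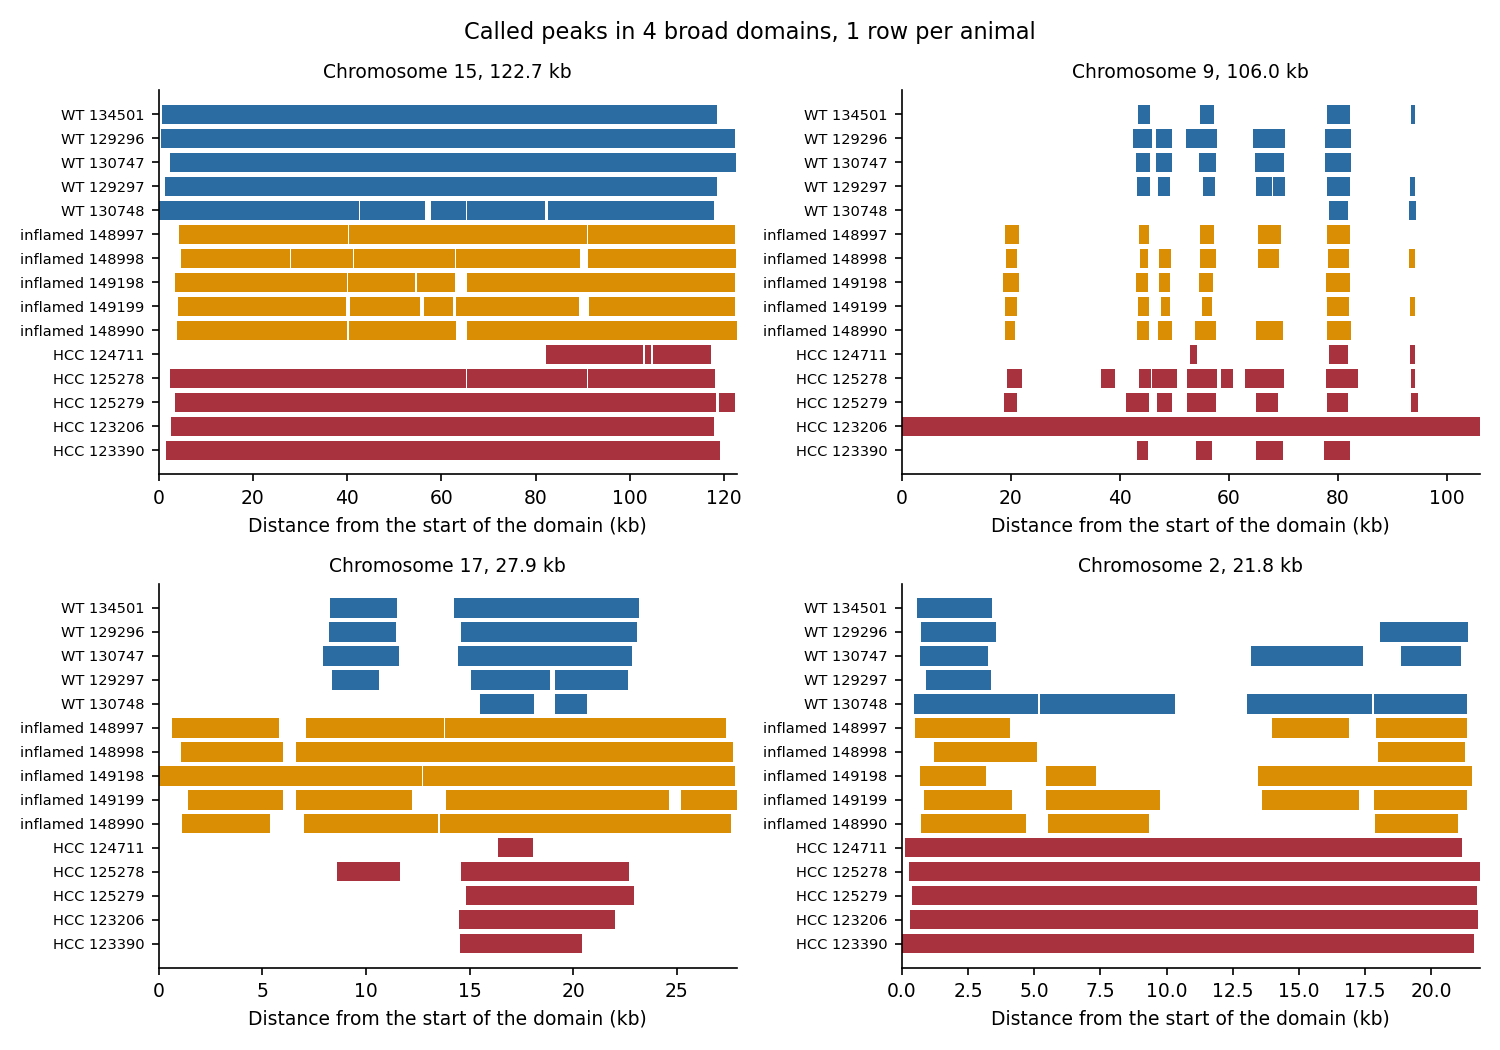
Called peaks (bars) in 4 of the named domains, 1 row per animal, against the distance from the start of the domain in kb; WT rows are blue, inflamed rows orange and HCC rows red. The chromosome 15 domain is almost fully covered in 14 animals and is a single peak in 4 of 5 WT but in no inflamed liver; the chromosome 9 domain is full in HCC 123206 alone; the chromosome 17 domain is fullest in inflamed livers and the chromosome 2 domain in HCC nodules.

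The chromosome 9 domain has a neighbour with the same pattern, chr9:7870196-7919709 (49514 bp), with 99.9% covered in HCC 123206 and at most 22.05% in any other animal. Over all domains, 22 were at least 90% covered in a single animal and at most 50% in each of the others. That animal was HCC 123390 in 14 domains, HCC 123206 in 5, WT 134501 in 2 and HCC 125279 in 1, and an inflamed liver in 0. The next widest of these were chr14:20953197-20989197 in HCC 123206, chr17:34943659-34976678 in WT 134501 and chr2:69215484-69247715 in HCC 123390. Regions filled by a single animal tend to reach 15000 bp through the peaks of that animal. The tally by animal thus follows in part from the width rule, and no difference between groups was read from it.

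The covered share, the percent of the merged width of a domain under peaks of an animal, was first summarised as each animal's median over the 2324 domains. In WT livers it was 72.1% (134501), 80.1% (129296), 73.2% (130747), 66.0% (129297) and 57.1% (130748). In inflamed livers it was 66.7% (148997), 61.9% (148998), 66.9% (149198), 61.2% (149199) and 69.9% (148990). In HCC nodules it was 49.5% (124711), 73.2% (125278), 71.8% (125279), 67.1% (123206) and 94.7% (123390). The groups overlapped, with means of 69.7% ± 8.63 (SD, n = 5) in WT, 65.3% ± 3.70 in inflamed and 71.3% ± 16.2 in HCC, and inflamed livers varied least among themselves. The narrower regions gave 74.9% ± 6.39, 71.9% ± 3.37 and 74.8% ± 10.3 in the same order. Without HCC 123390 the difference of HCC from WT turned from 1.57 to -4.29 percentage points. It also turned without WT 130748 alone (-1.57 points), with all lists cut to equal length (-0.243 points), with the top 50% of each list (-0.390 points) and with borders set without HCC 123390 (-1.76 points), and it was 7.01 points without HCC 124711 alone and 3.87 points without both WT 130748 and HCC 124711. The difference of HCC from inflamed livers was 5.94 points, 0.0888 points without HCC 123390 and 11.4 points without HCC 124711. The difference of inflamed from WT livers was -4.38 points, -7.51 points without WT 130748, -1.77 points without WT 129296 and -8.15 points when all lists were cut to equal length.

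Domains were more often in a single piece in WT than in inflamed livers. The mean number of peaks per domain was 2.14 ± 0.243 (SD, n = 5) in WT, 2.52 ± 0.133 in inflamed and 2.25 ± 0.460 in HCC, and the WT range of 1.87 to 2.49 overlapped the inflamed range of 2.38 to 2.69 through WT 130748. A single peak made up 36.9, 42.6, 31.4, 28.3 and 26.7% of the domains of the 5 WT livers and 21.99, 17.6, 21.3, 16.5 and 23.1% of those of the 5 inflamed livers, in the order of animals above. On this measure WT and inflamed livers did not overlap. In HCC nodules the share was 23.7, 18.8, 23.9, 30.2 and 62.5%, the last in HCC 123390. Without HCC 123390 the difference in peaks per domain of HCC from inflamed livers went from -0.272 to -0.0854. That of HCC from WT livers went from 0.106 to 0.293. Inflamed livers also had longer lists than WT livers, and when every list was cut to its best 25867 peaks the difference in peaks per domain between inflamed and WT livers was 0.071 in place of 0.38.

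Domains also held a smaller share of all peak length in inflamed livers. It was 30.7 to 32.9% in WT (mean 31.8% ± 0.971), 24.7 to 27.6% in inflamed (26.3% ± 1.11) and 24.2 to 33.5% in HCC animals (29.2% ± 3.35; SD, n = 5 each), with no overlap of WT and inflamed livers. The length under peaks inside the domains was similar, 40.1 ± 4.08 Mb in WT and 38.1 ± 1.73 Mb in inflamed livers, while the length under all peaks was 127 ± 15.2 and 145 ± 9.17 Mb. The longest peak of a list was 113709 to 121931 bp in WT livers and 57959 to 89429 bp in inflamed livers, and 82735 to 143840 bp in HCC nodules.

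**Figure D2:**
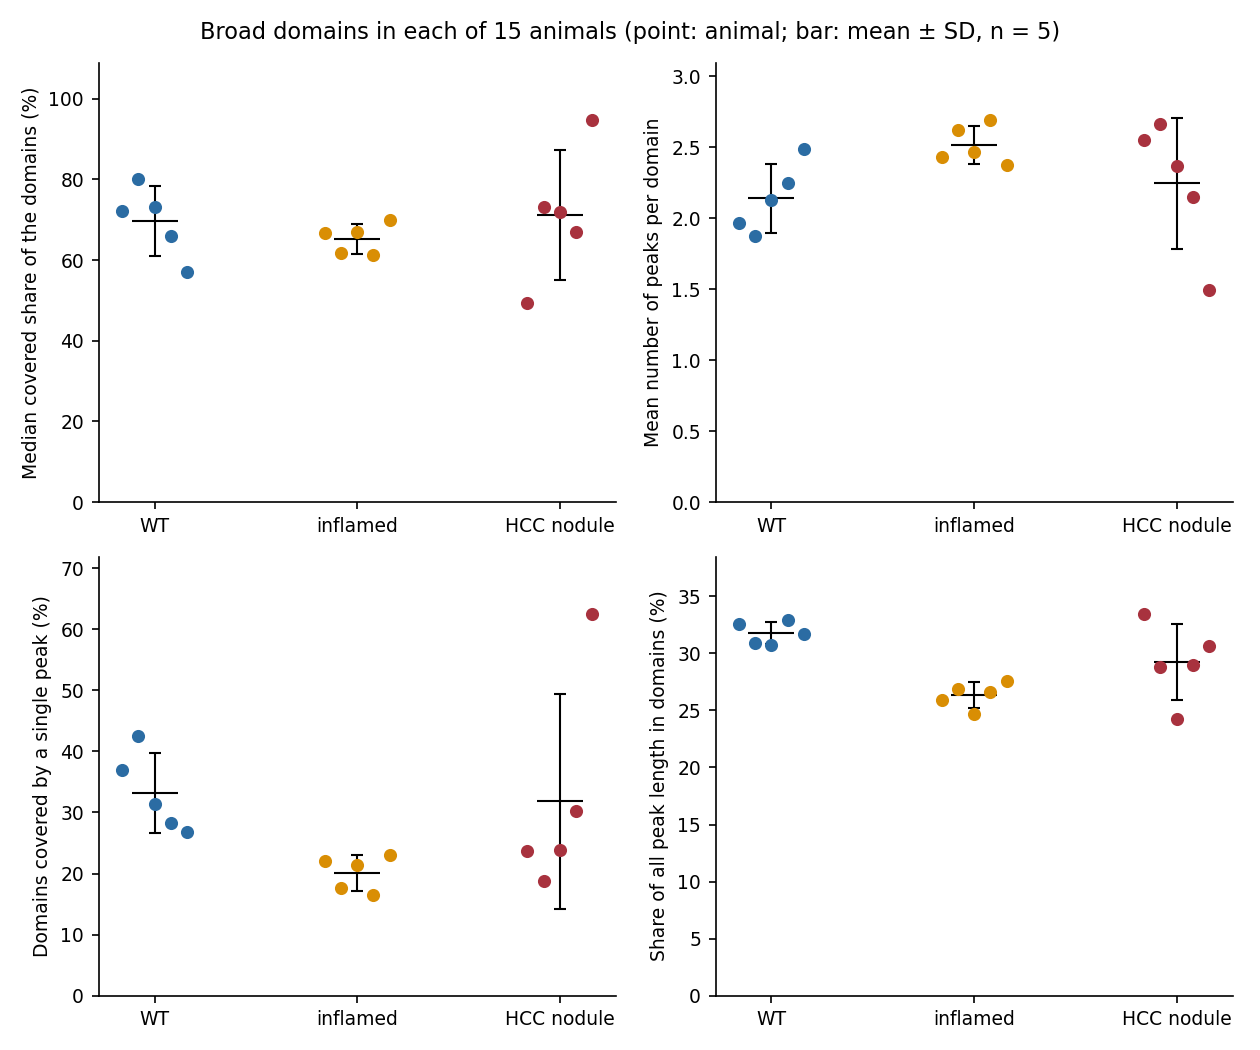
Median covered share of the 2324 domains, mean number of peaks per domain, percent of domains made of a single peak and percent of all peak length that lies in domains, 1 point per animal with the mean ± SD of 5 animals. WT and inflamed livers overlap in the upper panels and not in the lower panels, where all 5 inflamed livers lie below all 5 WT livers; HCC 123390 lies highest for covered share (94.7%) and single-peak domains (62.5%).

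The number of pieces rose with width in every group. Domains of 15000 to 20000 bp (966 domains) had 1.65 ± 0.126 peaks in WT, 1.90 ± 0.0875 in inflamed and 1.75 ± 0.267 in HCC animals. Domains of 50000 bp or more (114 domains) had 4.28 ± 0.948, 5.35 ± 0.392 and 4.42 ± 1.54 peaks (SD, n = 5 each). In the widest class the covered share was 76.3% ± 8.70 in WT, 68.1% ± 3.33 in inflamed and 76.9% ± 15.9 in HCC animals.

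Along a domain, coverage was flat over the middle and fell at the borders, which are set by whichever animal reached farthest. In the middle of the width (2 of 20 bins) it was 74.7% ± 7.64 in WT, 72.1% ± 3.15 in inflamed and 74.9% ± 11.8 in HCC animals. In the outermost bins, 1 of 20 at each end, it was 28.6% ± 6.31, 21.7% ± 2.51 and 33.2% ± 16.2 (SD, n = 5 each). HCC 123390 set the upper end of the HCC range there, 61.1%, and HCC 124711 covered least of the middle, 57.5%.

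**Figure D3:**
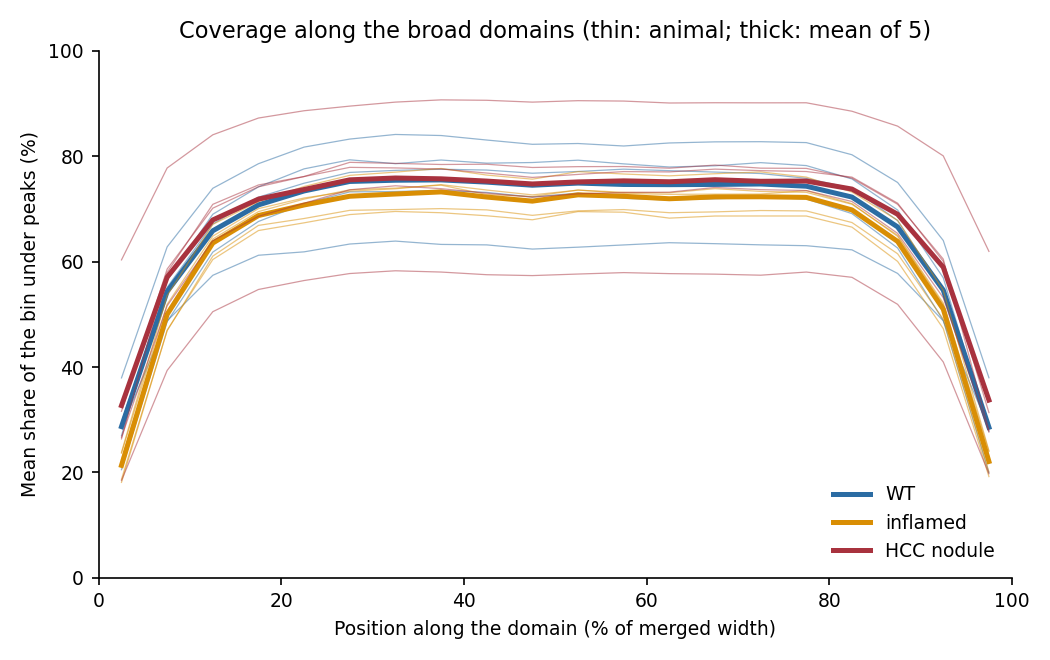
Mean share of each of 20 bins under peaks (%) against the position along the domain (% of merged width), averaged over the 2324 domains; thin lines are animals and thick lines the mean of 5 animals of a group. The group means lie between 72.1 and 74.9% in the middle 2 bins, while single animals range from 57.5 to 90.4%.

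Scores were first compared at a fixed cut of 3100, a score that many peaks share and some exceed. This cut lay at a different rank in each list, from percentile 87.0 in HCC 124711 to percentile 94.6 in HCC 123390. The best peak of a domain scored 3100 or more in 65.0% ± 4.82 of domains in WT, 64.8% ± 3.67 in inflamed and 56.4% ± 9.20 in HCC animals, against 29.7% ± 12.2, 31.3% ± 8.56 and 29.0% ± 13.7 of the narrower regions (SD, n = 5 each). The gap was small in both libraries with many tied peaks. In HCC 124711 the shares were 51.5% of domains and 49.4% of narrower regions, and in WT 130748 59.0 and 50.8%. The lowest share of all animals was that of HCC 123390, 45.4%, so that the list with the fullest domains had the fewest at 3100 or more. The highest was that of WT 130747, 71.9%. As ranks within a list the groups had another order. The median score percentile of domains was 90.3 ± 1.79 in WT, 92.9 ± 1.06 in inflamed and 90.9 ± 3.04 in HCC animals (SD, n = 5 each). The narrower regions had the same order, 71.1 ± 9.23, 78.3 ± 2.49 and 73.4 ± 5.58. In every animal but HCC 123390 the value of the domains was the percentile of the tied score itself. In those lists it gives no finer rank and reflects only where the tied score lies in the list.

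Covered shares were compared between groups region by region with limma, fitted over the 31682 merged regions with a peak in at least 5 animals and adjusted over all of them by the Benjamini-Hochberg method. Between inflamed and WT livers 143 domains were higher and 185 lower in inflamed livers (adjusted p below 0.05), 14.1% of the 2324, beside 24.8% of all regions tested (20.0% higher and 4.86% lower) and 7.63% of the narrower regions with a peak in every animal. The regions tested include many that some animals lack, where covered shares can go to 0. The share among domains was below that background for both directions together and for higher calls (6.15%). It was above that background for lower calls (7.96%). The median difference over the domains was -4.73 percentage points, over the narrower regions -3.37 points and over all regions tested 3.89 points, with the opposite sign. With each animal's covered shares centred on its own median, 230 domains were higher and 149 lower, so that the balance of directions depended on this scaling and turned with it, and the median difference was -1.38 points. Without WT 130748 and HCC 124711, 224 were higher and 445 lower. Calls over all regions tested are not given for the alternative limma fits, here and in the other comparisons. Whether such shifts are particular to the domains therefore cannot be told. By complete separation of the 5 animals of each group, 200 domains were higher and 310 lower in inflamed livers, beside 5.54 and 8.45% of all regions with a peak in every animal.

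Among domains higher in inflamed livers, chr5:93170297-93210373 (40077 bp) differed most. It was covered to 45.7, 41.4, 33.4, 14.7 and 16.1% in the 5 WT livers and to 97.5, 93.9, 94.0, 89.6 and 96.1% in the 5 inflamed livers, a difference of 64.0 ± 12.0 points (SE; limma, adjusted p = 0.00097). The groups did not overlap. Of the nodules, 4 lay at 87.4 to 99.7% and HCC 124711 at 24.96%. The domain chr12:80841896-80879069 (37174 bp) differed by 62.7 ± 13.1 points (adjusted p = 0.0021), with 6.24 to 61.3% in WT and 91.9 to 99.4% in inflamed livers, and lost the call on a log2 scale (adjusted p = 0.067). The domain chr15:78416669-78432943 (16275 bp) was a single peak over 10.96 to 27.2% of its width in WT and 2 or 3 peaks over 55.4 to 89.1% in inflamed livers (60.7 ± 13.4 points, adjusted p = 0.0031).

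Among domains lower in inflamed livers, chr4:140075555-140094410 (18856 bp) differed most. It was covered to 72.5, 97.4, 80.2, 75.3 and 95.9% in WT and to 8.84, 41.7, 9.59, 11.0 and 8.35% in inflamed livers, a difference of -68.4 ± 13.2 points (SE; limma, adjusted p = 0.0012). Inflamed 148998 stood above the other inflamed livers, and below every WT liver. The same domain was the first of those lower in HCC than in WT, with 10.4, 67.1, 8.57, 13.5 and 10.1% in the nodules (-62.3 ± 13.2 points, adjusted p = 0.013; 0.082 when only these 2 groups were fitted). The next, chr11:28581779-28604917 and chr2:32101281-32117283, were covered to at most 15.7 and 19.9% in every inflamed liver but to 7.00 to 95.5% and 23.7 to 98.2% in WT livers, and their calls (adjusted p = 0.037 and 0.022) were lost in 9 and 3 of their alternative settings.

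The covered shares of the nodules were not part of the contrast that chose the 143 and 185 domains. The nodules did enter the choice through the presence in every list, the borders of the domains and the shared estimate of spread. In the 143 domains the animals' median covered share was 41.8 to 55.9% in WT and 83.9 to 90.8% in inflamed livers, which the choice fixed, and 54.0, 75.6, 89.5, 74.0 and 75.9% in the nodules 124711, 125278, 125279, 123206 and 123390. In the 185 domains it was 82.5 to 92.2% in WT and 55.3 to 64.6% in inflamed livers, and 70.9, 76.3, 66.9, 70.4 and 88.6% in the nodules. In the 1996 domains not called between inflamed and WT livers it was 54.3 to 79.8% in WT livers, 60.1 to 68.9% in inflamed livers and 46.6, 72.7, 71.4, 66.5 and 95.6% in the same nodules. Domains chosen for low values in a group favour higher values in any other group, so no direction was read from the nodules. The 185 domains had a larger shared core (median 42.6%) than the 143 (24.9%), and domains called in no comparison had 29.2%. A shared core cannot exceed the covered share of the least covered animal. Because the 143 and 185 domains were chosen by covered share, this order follows in part from the choice.

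**Figure D4:**
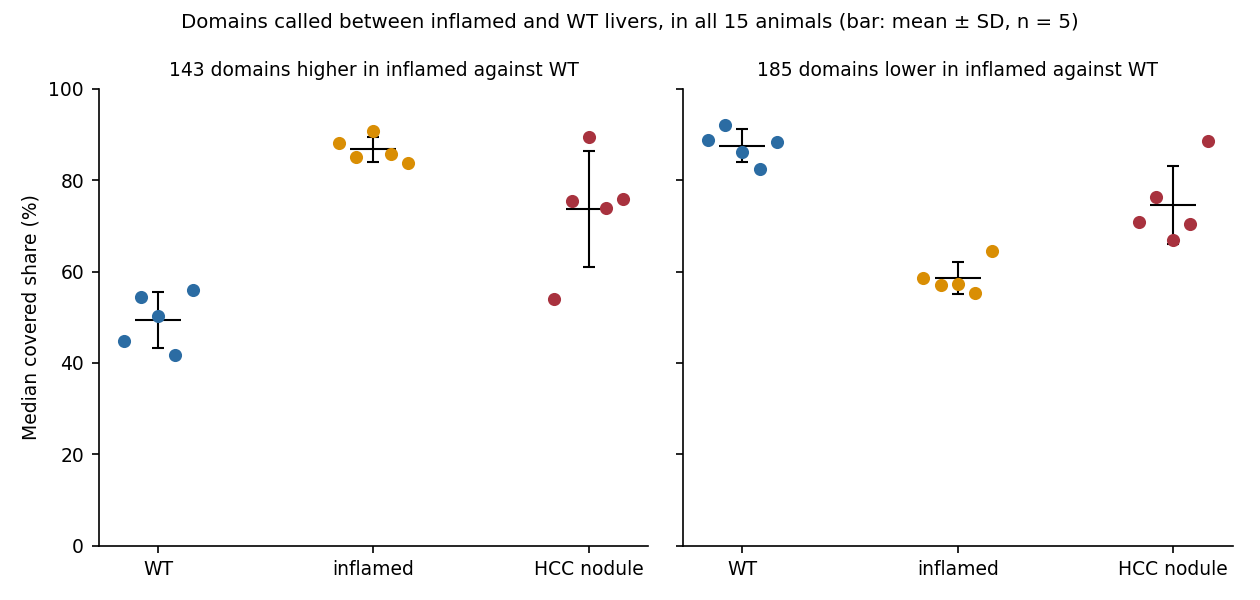
Median covered share (%) of the 143 domains higher and the 185 domains lower in inflamed than in WT livers, 1 point per animal with the mean ± SD of 5 animals. The gap between WT and inflamed livers follows from how the domains were chosen; the nodules, whose covered shares are not part of that contrast, range from 54.0 to 89.5% in the former and from 66.9 to 88.6% in the latter.

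Between HCC nodules and inflamed livers 59 domains were higher and 41 lower in HCC, 4.30% of the domains beside 9.70% of all regions tested (1.19% higher and 8.51% lower) and 1.90% of the narrower regions. This comparison shares the inflamed animals with the previous one. After centring 48 were higher and 69 lower, so that the balance turned with the scaling here as well, and without WT 130748 and HCC 124711 202 were higher and 46 lower. With the top 50% of each list 14 were higher and 7 lower. The exact permutation test per region with adjustment called 0 and 0, where an unadjusted exact permutation p below 0.05 held for 431 domains (18.5%, beside 19.3% of all regions tested). The median difference was 4.99 points over the domains, 2.69 points over the narrower regions and -3.29 points, with the opposite sign, over all regions tested. Over the domains it was 1.501 points after centring. By complete separation 137 domains were higher and 50 lower in HCC, beside 2.95 and 1.57% of all regions with a peak in every animal.

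The domain chr8:59786268-59824885 (38618 bp) differed most. It was covered to 96.0, 82.8, 100, 91.6 and 80.5% in inflamed livers and to 17.5, 21.6, 23.7, 25.8 and 3.38% in nodules, a difference of -71.8 ± 10.7 points (SE; limma, adjusted p = 0.00017). WT livers, at 14.8 to 45.7%, were also below every inflamed liver (57.2 ± 10.7 points for inflamed against WT, adjusted p = 0.00094). The domains chr17:73400465-73428353 (27889 bp) and chr8:74727352-74745601 (18250 bp) were likewise fullest in inflamed livers. The former was 84.7 to 99.5% covered in inflamed livers, 14.9 to 43.6% in WT livers and 5.92 to 39.9% in nodules, and the latter 81.9 to 99.7%, 18.2 to 35.5% and 13.5 to 50.0%. They were lower in HCC than in inflamed livers by -66.8 ± 10.4 and -53.4 ± 10.2 points (adjusted p = 0.00026 and 0.0019). In the other direction, chr18:11994750-12024023 (29274 bp) was covered to 22.1 to 43.7% in inflamed livers and to 77.3 to 93.9% in nodules (52.2 ± 9.94 points, adjusted p = 0.0018), and WT livers spanned 38.6 to 86.5%. The domains chr4:137290729-137309084 and chr14:31368810-31388381 were covered to at most 17.6 and 17.9% in inflamed livers, and to 34.6 to 95.9% and 33.1 to 100% in nodules (adjusted p = 0.010 and 0.030), and the call of the latter was lost in 10 of its alternative settings.

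Between HCC nodules and WT livers 60 domains were higher and 26 lower in HCC, 3.70% of the domains beside 4.99% of all regions tested (2.78% higher and 2.21% lower) and 1.41% of the narrower regions. By complete separation 51 were higher and 42 lower, beside 1.09 and 1.36% of all regions with a peak in every animal. After centring 82 were higher and 59 lower, and without WT 130748 and HCC 124711 201 were higher and 60 lower. Without HCC 123390 alone 61 were higher and 81 lower, so that the balance of directions turned. With only these 2 groups fitted 8 were higher and 6 lower, with the top 50% of each list 10 and 10, and by the exact permutation test per region with adjustment 0 and 0, where an unadjusted exact permutation p below 0.05 held for 303 domains (13.04%, beside 11.6% of all regions tested). Over the 3 comparisons 402 domains were called at least once and 1922 were called in none. The same count is not given for other regions, so it describes the domains alone. In each comparison the share of domains called lay below that of all regions tested and above that of the narrower regions.

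The domain chr2:25017064-25038887 (21824 bp) was a single peak over 96.4, 98.7, 97.7, 98.3 and 99.1% of the width in the 5 nodules. WT livers covered 12.98, 28.2, 41.5, 11.4 and 82.4% of it in 1 to 4 peaks, and inflamed livers 32.9 to 67.9% in 2 to 4 peaks. Every nodule lay above all 10 other animals, by 62.7 ± 12.0 points against WT (SE; limma, adjusted p = 0.0066) and 47.3 ± 12.0 points against inflamed livers (adjusted p = 0.016), although the call against WT was lost when only these 2 groups were fitted (adjusted p = 0.062). In chr2:167196158-167219172 (23015 bp) WT livers had 13.6 to 32.8%, inflamed livers 75.2 to 79.1% and nodules 71.7 to 100% (59.0 ± 8.77 points for HCC against WT, adjusted p = 0.0011), and inflamed livers were higher than WT livers by 55.5 ± 8.77 points (adjusted p = 0.00025). In chr15:38374092-38392572 (18481 bp) all WT livers lay between 14.6 and 17.5%, inflamed livers between 54.7 and 66.5% and nodules between 39.9 and 97.4% (56.1 ± 11.4 points for HCC against WT, adjusted p = 0.0098).

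A stepwise order was seen in chr2:103540005-103559987 (19983 bp). WT livers covered 95.9 to 100%, inflamed livers 51.6 to 88.9% and nodules 14.9 to 58.4%. HCC was lower than WT by -61.9 ± 9.86 points (adjusted p = 0.0018), inflamed lower than WT by -29.4 ± 9.86 points (adjusted p = 0.036) and HCC lower than inflamed by -32.5 ± 9.86 points (adjusted p = 0.044). In chr13:59011469-59031161 (19693 bp) HCC was lower than WT by -56.9 ± 11.9 points (adjusted p = 0.011), and neither difference from inflamed livers passed the threshold (adjusted p = 0.098 and 0.14).

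**Figure D5:**
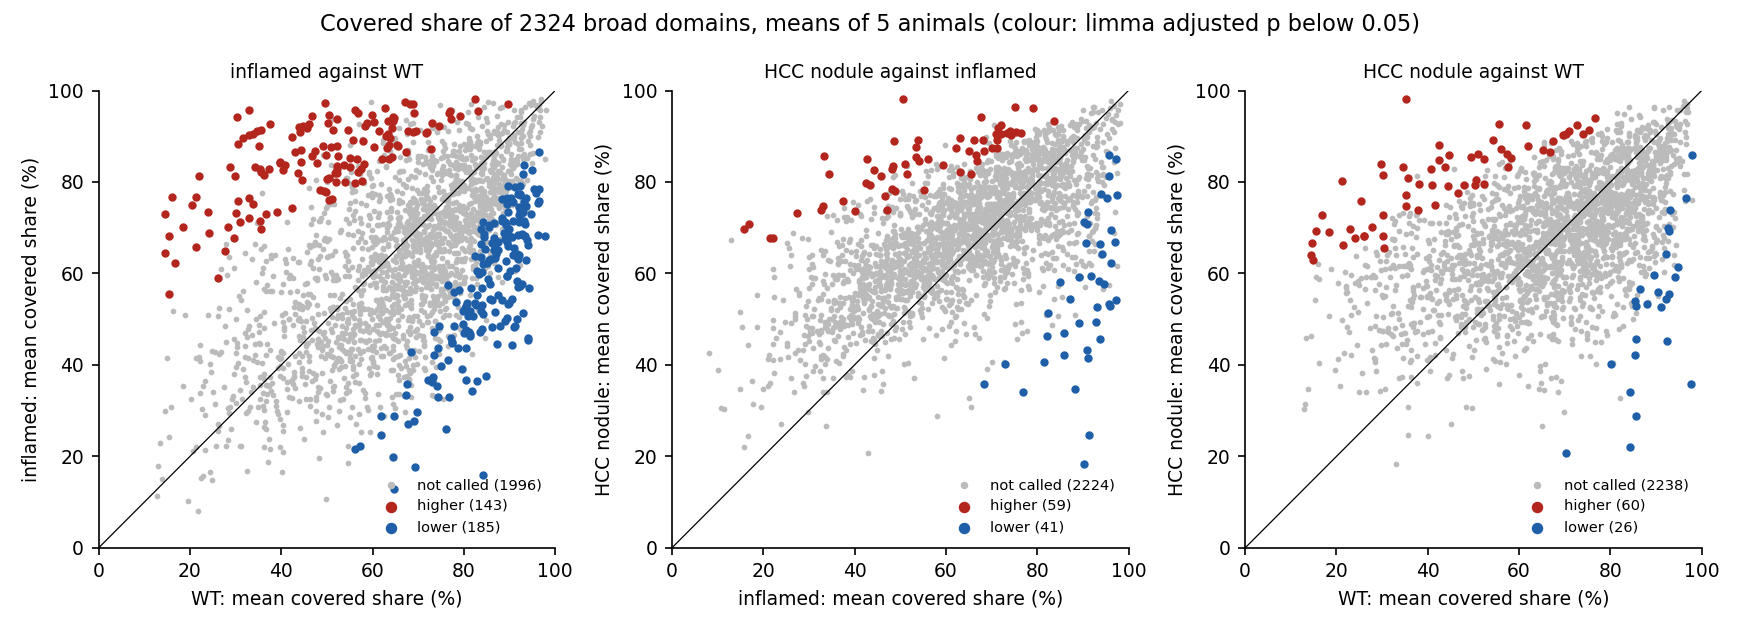
Mean covered share (%) of each of the 2324 domains in 5 animals of a group against the mean in 5 animals of another group, for the 3 comparisons; red and blue points are higher and lower at a limma adjusted p below 0.05, grey points are not called, and the line marks equal shares. Called domains number 328 between inflamed and WT livers, 100 between HCC nodules and inflamed livers and 86 between HCC nodules and WT livers.

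Division into peaks was then compared domain by domain by complete separation of the groups, with no p-value, because the numbers of peaks are small and often tied. In 86 domains all inflamed livers held more peaks than any WT liver, and in 16 they all held fewer, 3.70 and 0.688% of the domains beside 1.34 and 0.219% of all regions with a peak in every animal. The narrower regions in that background held a mean of only 1.10 ± 0.0271 peaks in WT and 1.14 ± 0.0145 in inflamed livers (SD, n = 5 each). Of the 86 domains, 11 were also called higher and 13 lower in covered share, and 62 were not called. Without WT 130748, the most divided WT library, more peaks in all inflamed livers were found in 204 domains. With equal lists the counts were 35 and 33, so that the excess of more divided domains was not seen with lists of equal length. HCC nodules had more peaks than inflamed livers in 9 domains and fewer in 16, 0.387 and 0.688% of the domains beside 0.101 and 0.269% of all regions with a peak in every animal. They had more peaks than WT livers in 5 domains and fewer in 3, 0.215 and 0.129% of the domains beside 0.0590 and 0.0421% of those regions. Leaving out HCC 123390 gave 23 domains with more peaks than WT livers, and leaving out HCC 124711 gave 15 with fewer. Leaving out HCC 125278 gave 52 with fewer peaks than inflamed livers.

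The examples of division were picked after their values were seen. Among domains with more peaks in inflamed than in WT livers, chr10:98649814-98740004 (90191 bp) had the largest difference in mean number of peaks, with 6 to 8 peaks over 37.9 to 70.4% of its width in WT livers and 9 to 11 over 56.6 to 63.9% in inflamed livers. Its covered share did not pass the threshold (adjusted p = 0.80), and nodules held 1 to 12 peaks. The domain chr15:10550127-10569499 (19373 bp) was a single peak over 87.2 to 98.4% of its width in all 5 WT livers and 4 peaks over 65.5 to 73.7% in all 5 inflamed livers, and 1 to 3 peaks in nodules. The domain chr9:32499600-32533022 (33423 bp) went the other way, with 2 to 5 peaks over 43.6 to 84.7% in WT livers and a single peak over 87.0 to 97.7% in every inflamed liver, and 2 to 4 peaks in nodules. The domain chr7:31726008-31763668 (37661 bp) was a single peak over at least 94.7% in all 10 WT and inflamed livers and 2 or 3 peaks over 77.1 to 94.1% in the 5 nodules. The domain chr9:107463552-107525097 (61546 bp) held 3 to 7 peaks in nodules and 8 or 9 in inflamed livers, whereas the nodules overlapped the WT livers at 5 to 8. The domain chr10:74506325-74527829 (21505 bp) held 3 or 4 peaks in nodules, 1 or 2 in WT livers and 2 in every inflamed liver.

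Stretches of sequence that separated groups completely were short within most domains. Positions under peaks of all 5 inflamed and no WT liver added up to 0.697 Mb, 1.17% of the domain length, with at least 1000 bp in 190 domains. Positions under peaks of all 5 WT and no inflamed liver added up to 0.828 Mb, 1.396% of the domain length, in 247 domains. In the narrower regions these stretches made up 0.791 and 0.646% of the length. They reached 1000 bp in 8.18 and 10.6% of the domains and in 1.87 and 1.09% of the narrower regions, which are shorter. Stretches in all HCC nodules and no WT liver reached 1000 bp in 55 domains (2.37%, beside 0.126% of the narrower regions), and stretches in all WT livers and no nodule in 26 (1.12%, beside 0.136%). Stretches in all nodules and no inflamed liver reached it in 79 domains (3.40%, beside 0.241%), and stretches in all inflamed livers and no nodule in 30 (1.29%, beside 0.272%).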

How the data were processed

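The authors called H3K27Ac peaks in each animal separately and deposited 1 list per animal, with the start, end and score of each peak and no header. Deposited scores run from 50 to 3233.06, and what they measure is not given in the sources used here. The submitters' processing notes name Bowtie 0.12.7, MACS 1.4 and mm9. The control, filters and thresholds of the calls are not given in the sources used here. Peaks on chromosome 1 end at up to 197069010, and coordinates are those of NCBI37/mm9, printed from base 1. An annotation or genome of this build was not used here, so no gene is assigned to a domain, no sequence is shown and liver markers were not checked. The IgG control library was not analysed here. The study set aside some samples as outliers without naming them; all 15 were kept. The records and the paper's text give different clodronate doses, ages and WT strain names, and those of the records are printed.

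Peaks on chromosomes 1 to 19 were merged and measured with Python 3.11.15 and NumPy 2.4.6. The covered share, in percent of merged width, was fitted in 1 model of 15 animals with limma 3.58.1 (R 4.3.3, trend, no covariates, threshold 0.05 on Benjamini-Hochberg adjusted p, 31682 regions). Per-animal summaries over the domains were given with no p-value. The fit was tested on simulated covered shares. Of 100 regions planted at 40 points and 100 at 80 points it called 28 and 80 in the contrast of inflamed with WT, 28 and 81 in that of HCC with inflamed and 29 and 82 in that of HCC with WT, beside 11, 7 and 3 others of 31682. Many simulated differences of 40 points thus went uncalled. The planted regions were drawn from all regions tested and given normal noise, so these rates need not hold for the domains. The domains and tests were chosen with earlier results of these data known. Named domains are the 5 widest, the 3 with the largest and the 3 with the smallest shared core, the 2 with the most and the 2 with the fewest peaks, and, for each comparison and direction, the 3 called domains with the largest difference. Ties in shared core or number of peaks were broken by width, the widest first. Animals differ in age between groups, and no batch is given per animal. The SE and p-value of a limma contrast rest on the spread between animals within all 3 groups of 5, drawn towards that of other regions. They thus also carry the spread of the group that is not compared. The alternatives changed the lists, the width and merging rules, the test, the scale, the scaling between animals and the animals included; regions merged without HCC 123390 were added after seeing the data. Figures were drawn with matplotlib 3.10.9.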

Additional observations from a re-analysis of the deposited data

Results flagged for a closer look

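Among 114 sets of 5 animals examined, 20 held a value far from the other 4. How many would do so by chance was not tested. Of these sets 21 were summaries over all domains and the rest covered shares of the 31 named domains, many of which were named for extreme values. Among the summaries 1 stood out, the 62.5% of single-peak domains in HCC 123390, with the next nodule at 30.2%.

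WT 130748 gave the largest number of the single-domain values. It was covered to 97.8% in chr7:19584995-19611817, 1.69% in chr2:79796266-79846385, 100% in chr17:57357253-57378297, 96.6% in chr8:73230850-73251538, 73.7% in chr14:31368810-31388381, 18.2% in chr8:74727352-74745601 and 14.6% in chr15:38374092-38392572. The other WT values were 91.4% in chr12:88222130-88242592 for WT 129297 and 27.2% in chr15:78416669-78432943 for WT 129296.

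HCC 124711 was covered to 28.1% in chr15:58800660-58923358, 24.96% in chr5:93170297-93210373 and 93.0% in chr2:32101281-32117283. HCC 123390 was covered to 7.76% in chr14:26264852-26388593 and 98.8% in chr15:99660195-99752783, the domain with the second most peaks per animal. HCC 123206 was covered to 100% in chr9:7923989-8029961, HCC 125278 to 67.1% in chr4:140075555-140094410 and HCC 125279 to 100% in chr2:167196158-167219172.

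In inflamed livers, 148998 was covered to 41.7% in chr4:140075555-140094410 and 149198 to 71.7% in chr9:45991196-46092818. Chromosome X, left out of the comparisons, held 13 regions that met the same rule, of 1324 merged regions.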

How the results depend on the processing

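No paired analysis was possible because each animal number belongs to 1 animal and the groups share none. The number of domains was 2324, from 1854 to 2894 with equal lists, peaks joined over 1000 bp or borders set without HCC 123390, 1468 with the top 50% of each list, 4260 at 10000 bp, 1358 at 20000 bp and 1584 with at least 25% covered in every animal, and 1898 (without HCC 123390) to 2350 when each animal was left out.

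Calls of covered share are given below for the domains alone, so shifts under the alternative limma fits need not be particular to them. As domains higher and lower, calls were 143 and 185 in the comparison of inflamed with WT, 59 and 41 in that of HCC with inflamed and 60 and 26 in that of HCC with WT. In the same order they were 230 and 149, 48 and 69, and 82 and 59 with centred shares, and 43 and 81, 14 and 7, and 10 and 10 with the top 50% of each list. Without WT 130748 and HCC 124711 they were 224 and 445, 202 and 46, and 201 and 60. With only the groups compared in the fit, 242 and 374 were called for inflamed against WT and 8 and 6 for HCC against WT. The exact permutation test per region, whose smallest p is 0.00794, called 200 and 310 for inflamed against WT, as complete separation did, and 0 in the other comparisons, where an unadjusted exact permutation p below 0.05 held for 431 and 303 domains (18.5 and 13.04%, beside 19.3 and 11.6% of all regions tested). Complete separation gave 137 higher for HCC against inflamed and 42 lower for HCC against WT. On the log2 scale HCC against inflamed gave 93 and 22, with all merged regions tested 36 higher, with only regions present in all animals 31 and 15, and without the variance trend 27 lower. Inflamed against WT gave 121 lower with only regions present in all animals, and HCC against WT 30 higher with all merged regions. Fewer or more regions tested changes the adjustment; the other causes were not tested.

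Leaving out each animal in turn gave 95 (without inflamed 149198) to 192 higher and 110 (without WT 129296) to 258 lower for inflamed against WT, the latter also 123, 123 and 115 without inflamed 148997, 149198 and 149199. For HCC against inflamed it gave 34 to 111 higher and 16 to 57 lower, with values beyond 1.5 times in either direction without any inflamed animal, HCC 124711, HCC 125279 or HCC 123206. For HCC against WT it gave 21 to 167 higher, the latter without HCC 124711, and 10 to 81 lower, the latter without HCC 123390, with values beyond 1.5 times without any WT animal, without each inflamed animal but 148990 and without each nodule but 125278. The direction of all 18 named differences was kept in all 468 repeats under the alternatives, with the call lost in 30.

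The difference in peaks per domain between inflamed and WT livers was 0.0712 with equal lists. Domains with more peaks in every inflamed than WT animal numbered 35 with equal lists, 55 at 20000 bp and 204 without WT 130748 and HCC 124711, and those with fewer 4 with the top 50% of each list, 33 with equal lists, 25 at 10000 bp and 10 at 20000 bp. For HCC against inflamed, those with more peaks numbered 2 with the top 50% of each list and 5 at 20000 bp, and those with fewer 10 with equal lists, 29 at 10000 bp and 46 without WT 130748 and HCC 124711. For HCC against WT, those with more numbered 3 with the top 50% of each list and 24 without WT 130748 and HCC 124711, and those with fewer 5 at 10000 bp and 21 without WT 130748 and HCC 124711. With each animal left out in turn, the counts with more and fewer peaks ranged from 92 to 204 (without WT 130748) and 16 to 26 (inflamed and WT), 9 to 14 and 18 to 52 (HCC and inflamed) and 5 to 23 (without HCC 123390) and 3 to 15 (without HCC 124711) in HCC against WT. Counts moved beyond 1.5 times without WT 134501, WT 130748 or inflamed 148990 in inflamed against WT (138 more without the last), without inflamed 148990, HCC 124711, 125278, 125279 or 123390 in HCC against inflamed, and without WT 134501, WT 130748, HCC 124711, 125278, 123206 or 123390 in HCC against WT. The depth of each library is unknown, so that a difference in depth between animals could move any of these counts; its part was not tested.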

Other observations

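Of the 33 domains with 1 peak in every animal, the 2 widest were named, and WT 130748 covered most of both. In chr8:73230850-73251538 (20689 bp) that peak covered 96.6% in WT 130748 and 38.9 to 61.5% in the other 14 animals, and in chr17:57357253-57378297 (21045 bp) 100% against 74.1 to 80.8%. The part under a peak of 1 animal only was 38.1% of the former and 13.7% of the latter. A choice by width favours domains that a long peak of 1 animal widened, so no trait of WT 130748 was read from these 2.

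In the 5 Mb segment of chromosome 1 that ends at 140 Mb, 16 domains had a median covered share of 82.3% in HCC 123206, whose median over all 2324 domains was 67.1%, and 83.7% in HCC 123390, whose median over all domains was 94.7%. The other nodules had 49.1 to 77.0% there. The 16 domains held 1.94 peaks per domain in HCC 123206 beside 2.25 to 3.44 in the other 14 animals. They include chr1:138729967-138873806, a single peak over 100% in HCC 123206. In chr1:138895191-138922861 HCC 123206 also covered 100%, and every other animal at most 47.2%. The values of HCC 123206 in this segment may thus follow in part from the width rule, and no difference was read from them.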
